A study of Mus musculus with 9 samples.

Results

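Neutrophils of the mouse liver were taken from single-cell RNA-seq of whole livers by a rule on the raw table of unique molecular identifiers (UMIs, each counting 1 captured RNA molecule). A cell was taken when it had 200 or more detected genes, at least 10 UMIs of S100a8 and S100a9 together, and a UMI of at least 1 of Retnlg, Cxcr2, Mmp9 and Il1r2. It also had to hold fewer than 5 UMIs of C1qa, C1qb and C1qc together and 0 of Cd3e and Cd79a. The rule found 148 cells, 1.74% of the 8527 cells with 200 or more genes (8562 cells in all). The members were thus chosen by measured counts of these genes, whose levels are given as a description, with no test.

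The series asks how the cells of the liver change when the transcriptional co-activator YAP is switched on in hepatocytes. All mice were C57BL/6 with the ROSA26-rtTA-IRES-EGFP transactivator, used in the study after a stop cassette and with Cre under the albumin promoter, so that the transactivator is made in hepatocytes. The control group (WT, 2 libraries) lacked the YAP transgene and received doxycycline food for 7 days. The induced groups carried tetYAP, an active YAP under doxycycline control, and received the food for 3 days (YAP3d, 4 libraries) or 7 days (YAP7d, 3 libraries). YAP3d therefore differs from WT in the length of doxycycline feeding as well as in the transgene. Libraries are named here by group and replicate number, as in YAP7d_3. Each was taken as 1 mouse, and p-values measure the spread between these libraries alone.

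Neutrophils are short-lived granulocytes made in the bone marrow. They fill their granules in order: azurophil (primary) granule proteins such as myeloperoxidase are transcribed in promyelocytes, specific (secondary) granule proteins such as lactoferrin in myelocytes and metamyelocytes, and gelatinase granule proteins later. Chemoattractant and growth factor receptors and inflammatory cytokines belong to the mature cell, so the balance of these transcripts follows the age of the cell. C/EBP family factors and PU.1 direct granule gene transcription.

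Among these cells a minority stood apart by the transcripts of specific granule genes, of which 4 carry the results: Ngp (neutrophilic granule protein), Camp (cathelicidin), Ltf (lactoferrin) and Lcn2 (lipocalin 2, which binds bacterial iron carriers). Their upstream promoter sequences are shown because these transcripts set the cells apart. Each window spans 250 to 61 bases before the annotated start, from RefSeq on GRCm38.p6, and is printed 5′ to 3′ on the strand of the gene. Capitals mark matches on either strand to the C/EBP pattern TTGCNNAA (TTNNGCAA on the other strand) and to the PU.1 core. The latter was searched as GAGGAA, which is read from the opposite strand as TTCCTC, and no matches overlap here.
Ngp, chr9:110419558-110419747, plus strand: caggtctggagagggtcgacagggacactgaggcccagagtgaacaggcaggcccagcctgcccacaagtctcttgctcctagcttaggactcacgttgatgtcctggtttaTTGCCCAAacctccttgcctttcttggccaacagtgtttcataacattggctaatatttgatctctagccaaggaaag
Camp, chr9:109849517-109849706, minus strand: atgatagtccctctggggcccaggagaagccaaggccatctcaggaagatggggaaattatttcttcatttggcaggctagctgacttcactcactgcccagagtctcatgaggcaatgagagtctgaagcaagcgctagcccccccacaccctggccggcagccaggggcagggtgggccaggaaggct
Ltf, chr9:111019042-111019231, plus strand: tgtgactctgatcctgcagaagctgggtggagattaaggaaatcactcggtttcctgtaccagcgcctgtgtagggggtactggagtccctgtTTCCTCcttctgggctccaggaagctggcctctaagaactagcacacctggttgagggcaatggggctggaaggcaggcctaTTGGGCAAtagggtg
Lcn2, chr2:32387800-32387989, minus strand: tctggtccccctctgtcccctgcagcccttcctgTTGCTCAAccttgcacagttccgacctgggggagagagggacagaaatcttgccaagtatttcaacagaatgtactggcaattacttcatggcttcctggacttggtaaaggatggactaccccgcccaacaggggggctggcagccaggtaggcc
The C/EBP pattern was present in 3 of these windows, at bases -138 to -131 of Ngp, -75 to -68 of Ltf and -216 to -209 of Lcn2. The PU.1 core was present only in Ltf, at bases -157 to -152, and neither was found in the Camp window. Among all 32851 windows of the same length, 7.77% held the C/EBP pattern and 18.0% the PU.1 core. A match describes the letters in the window and was not tested as a binding site.

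Before any comparison the label was checked against the markers. The rule cells fell into 2 sets by the share of their UMIs that came from S100a8 and S100a9, the subunits of the calcium-binding protein calprotectin. In 117 cells the pair made up at least 1% of UMIs (lowest 1.09%), and these are called S100-rich. In the other 31 cells it reached at most 0.673%, and these are called S100-poor. Of the 31 S100-poor cells, 28 were in YAP7d_3, 2 in YAP3d_4 and 1 in WT_1. The plot of S100 content against depth separates the sets.

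**Figure D1:**
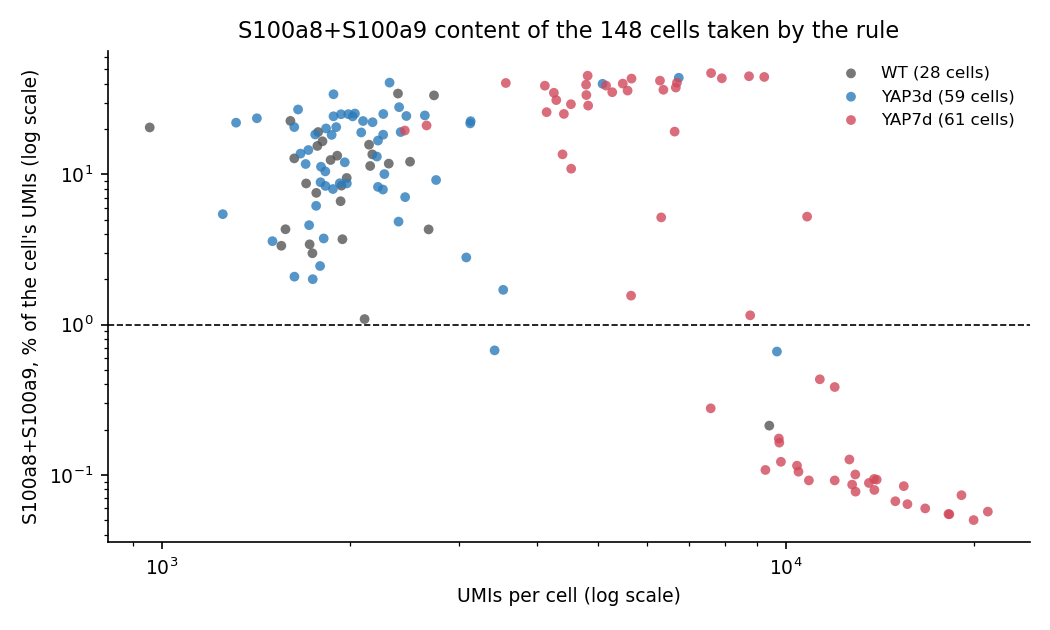
Each point is 1 cell taken by the rule, placed by its total UMIs and by the percent of its UMIs from S100a8 and S100a9 (both axes logarithmic), coloured by library group. The S100-rich cells lie at or above 1.09%, and the 28 S100-poor cells of YAP7d_3 lie at the lower right, at 7577 UMIs or more.

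The S100-rich cells also carried neutrophil markers that the rule did not use. Csf3r, the receptor for granulocyte colony-stimulating factor, was at 674 counts per 1000000 UMIs (CPM) over all 117 S100-rich cells, 29.6 CPM in monocytes and 3.41 CPM in lymphocytes. Hdc, which makes histamine, was at 1003 CPM in the S100-rich cells against 11.7 CPM in monocytes. These values are pooled over libraries that differ: in YAP7d Csf3r was at 64.6, 0 and 201 CPM and Hdc at 840, 2447 and 537 CPM, so Csf3r separated the YAP7d cells from monocytes less than those of WT and YAP3d. S100a8, at 145305 CPM, and Retnlg, a resistin-like secreted protein, at 27367 CPM, chose the cells, so these levels are a description.

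The 28 S100-poor cells of YAP7d_3 held little Csf3r, at 13.2 CPM. Their S100 share was at most 0.432%, 24 of them had at most 2 UMIs of the second marker genes, and they were deep, at 7577 to 21059 UMIs. Of the 28, 6 had 100 or more UMIs of Cd74, the chaperone of MHC class II. Over all 28 the 8 monocyte markers together were at 4977 CPM and Cd74 at 8736 CPM. Apart from the 6 cells with 100 or more, the S100-poor cells had at most 15 Cd74 UMIs each. The S100-rich cells of YAP7d_3 had at most 38 a cell. Ccr2, a chemokine receptor of inflammatory monocytes, was at 82.7 CPM in them, 317 CPM in the S100-poor cells and 99.8 CPM in the lymphocytes of that library. YAP7d_3 stood apart in its background too: S100a8 and S100a9 together were at 887 CPM in its lymphocytes, at 642 CPM in those of YAP3d_4 and between 10.1 and 107 CPM in the other libraries. Outside the rule, 565 cells of YAP7d_3 had 10 or more UMIs of the pair, against at most 17 in any other library. The shares of cells and the tests of genes that involve YAP7d are therefore given for the rule cells and for the S100-rich cells. The granule transcripts, the single-cell counts and the role lists of YAP7d are given for the S100-rich cells.

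The fixed limits on C1q, Cd3e and Cd79a also left out cells with at least 1% of UMIs from S100a8 and S100a9. Across all cells 159 had at least 1% of UMIs from the pair, and 42 of these were outside the rule (25 in YAP7d_3, 13 in YAP3d_4, 3 in WT_2 and 1 in YAP7d_1). Of the 42, 22 had 5 or more C1q UMIs and 24 had Cd3e or Cd79a, 21 of those with exactly 1 UMI. Among the 25 in YAP7d_3, 20 had 5 or more C1q UMIs. The 42 had a median of 6748 UMIs and reached 39040, and whether they are neutrophils was not tested. At the edges of the rule, 17 cells were inside with 10 to 12 S100 UMIs, 33 cells had 8 or 9, and 21 cells had enough S100 UMIs but none of the second genes.

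Markers of other cell types were then summed in the S100-rich cells. The 8 monocyte markers together were at 239 and 431 CPM in WT, at 93.2 to 502 CPM in YAP3d, and at 1163, 0 and 1943 CPM in YAP7d_1, YAP7d_2 and YAP7d_3, against 6709 CPM in the monocytes of YAP7d_3. Ly6c2 alone was at 1098 CPM in YAP7d_1 and 945 CPM in YAP7d_3, and Ccr2 was at 0 in every library but YAP7d_3. All 10 macrophage markers together, of which the rule itself limited C1qa, C1qb and C1qc, ran from 119 to 182 CPM in WT, 93.2 to 412 CPM in YAP3d and 194 to 408 CPM in YAP7d. Of 6 eosinophil markers 5 were at 0, as were 5 of 6 basophil and mast cell markers, and the hepatocyte markers reached 1223 CPM in the 1 cell of YAP7d_2. The 6 endothelial markers together reached 1228 CPM in YAP3d, 250 CPM in WT and 59.1 CPM in YAP7d. Scrublet called 0 of the 148 cells doublets (60, or 0.704%, of all cells). Of 8515 barcodes 46 occurred in more than 1 library, 1 of them with a rule cell.

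The libraries differed in depth, from 1314878 to 25056881 UMIs in total. The smallest cell kept by the authors had 822 to 1734 UMIs in the WT and YAP3d libraries, but 2461, 2443 and 4041 in YAP7d_1, YAP7d_2 and YAP7d_3. Neutrophils hold little RNA: the median of the S100-rich cells was 1580 to 2056 UMIs in WT and YAP3d libraries, below the smallest cell of any YAP7d library. In YAP7d it was 3835, 2452 and 5613 UMIs. Depth and the smallest cell kept cannot be told apart from 7 days of induction in what follows.

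The first question was whether the share of neutrophils changes with YAP induction. The rule cells made up 1.15% of cells in WT_1 (6 cells, exact 95% binomial interval 0.424% to 2.49%) and 1.55% in WT_2 (22 cells, 0.976% to 2.34%). In YAP3d_1 to YAP3d_4 the shares were 2.14%, 3.39%, 1.42% and 1.25%, from 6, 15, 6 and 32 cells. In YAP7d_1 to YAP7d_3 they were 0.668%, 0.217% and 3.05%, from 4, 1 and 56 cells. The groups overlapped, and YAP7d held both the lowest shares of the series and its second highest.

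**Figure D2:**
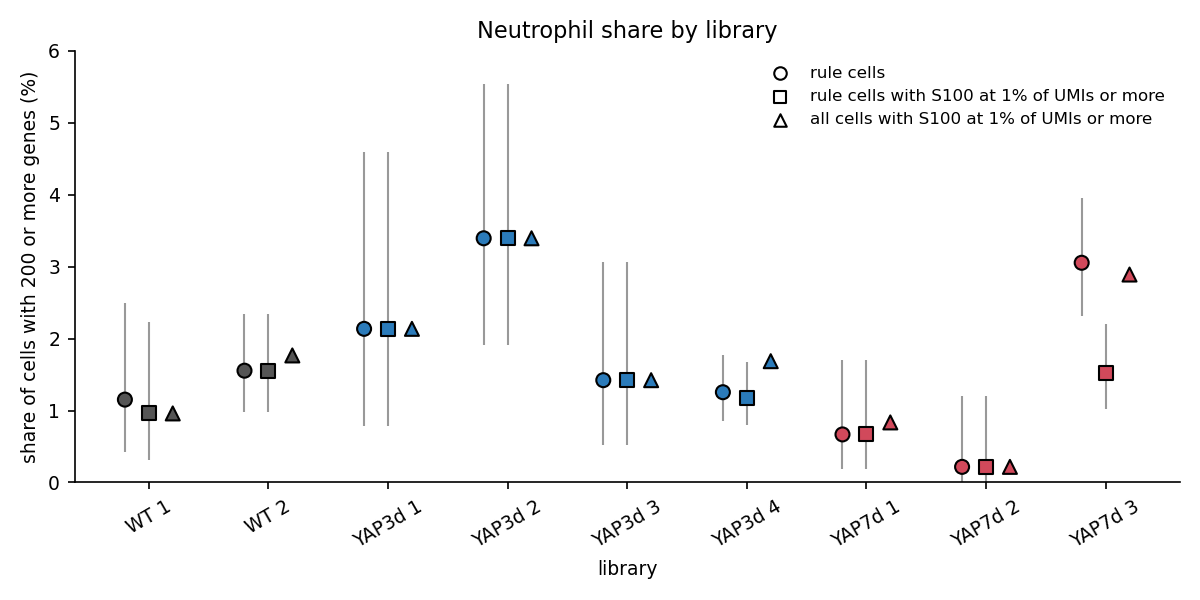
Share of neutrophils among cells with 200 or more genes (percent, y axis) in each of the 9 libraries, for the rule cells and for the S100-rich cells, with exact 95% binomial intervals that cover counting error only. Triangles, without intervals, show all cells with S100 at 1% of UMIs or more, at 2.89% in YAP7d_3. YAP7d_3 falls from 3.05% to 1.53% without its S100-poor cells, while the shares of the other libraries move little.

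WT libraries averaged 1.35% ± 0.284 (SD, n = 2), YAP3d libraries 2.05% ± 0.973 (n = 4) and those of YAP7d 1.31% ± 1.52 (n = 3). No difference exceeded the spread between libraries in exact two-sided permutation tests (p = 0.667 over the 3 groups). YAP3d was above WT by 0.699 percentage points (exact permutation p = 0.533, 0.8 adjusted over 3 pairs, smallest possible 0.0667). YAP7d differed from WT by -0.0399 points (exact permutation p = 1, smallest possible 0.1) and from YAP3d by -0.739 points (exact permutation p = 0.457, 0.8 adjusted, smallest possible 0.0286). With the S100-rich cells alone the YAP7d mean was 0.804% ± 0.665 (n = 3), with shares of 0.668%, 0.217% and 1.53%, and the 3-group exact permutation p was 0.218. The order of the groups depended on the cells counted. YAP7d was above WT with a lower S100 minimum, with no second gene, with 500 or more genes, and among the cells at or above the highest library floor. The exact permutation test over the 3 groups passed 0.05 in 1 alternative chosen after seeing the data, the S100-rich cells as a share of Ptprc-positive leukocytes (p = 0.0198). It did not pass when S100-rich cells outside the rule were added to that share (exact permutation p = 0.0992).

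The genes of the rule are described next, in the S100-rich cells. S100a8 was at 93523 and 70478 CPM in WT, at 68847, 155706, 92837 and 90860 CPM in YAP3d, and at 217613, 112969 and 188187 CPM in YAP7d. Retnlg was at 7157 and 7379 CPM in WT, at 13602, 23100, 7925 and 8942 CPM in YAP3d, and at 55308, 17945 and 41357 CPM in YAP7d. Cxcr2, the receptor that draws neutrophils to CXC chemokines, was at 1074 and 681 CPM in WT, at 1118, 660, 1544 and 524 CPM in YAP3d, and at 194, 1223 and 224 CPM in YAP7d. The 2 YAP7d libraries with more than 1 neutrophil were highest in S100a8 and Retnlg and lowest in Cxcr2. Mmp9, the gelatinase of the late granules, ranged from 884 to 1397 CPM over all 9 libraries.

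The specific granule genes set some cells apart from the others. Ngp was at 0 CPM in both WT libraries and in YAP3d_1 and YAP3d_3. It was at 2508 CPM in YAP3d_2, 150 CPM in YAP3d_4, 23842 CPM in YAP7d_1, 0 CPM in YAP7d_2 and 12508 CPM in YAP7d_3 (3871 CPM over the rule cells of that library). Camp was at 607 CPM in YAP3d_2, 11049 CPM in YAP7d_1 and 8782 CPM in YAP7d_3, and at 22.7 CPM or less in the other libraries. Ltf followed, at 132, 2520 and 1772 CPM in those libraries and at 0 in the rest. Lcn2 was detected in every library, at 358 and 658 CPM in WT, at 839, 4118, 720 and 734 CPM in YAP3d, and at 8787, 408 and 5652 CPM in YAP7d.

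In single cells these transcripts came from a minority. Cells with 10 or more UMIs of Ngp, Camp and Ltf together, a limit chosen with the values known, are called granule-transcript cells. They were 0 of 27 S100-rich cells in WT, 2 of 57 in YAP3d (both in YAP3d_2) and 21 of 33 in YAP7d. The count of 0 allows a share of up to 11.1% by counting error alone, but the 27 WT cells had at most 2731 UMIs, while every granule-transcript cell had 3559 or more. Among the S100-rich cells outside the rule, WT_2 held 1 such cell, YAP3d_4 held 2 and YAP7d_3 held 12. In YAP7d they were 3 of 4 cells in YAP7d_1, 0 of 1 in YAP7d_2 and 18 of 28 in YAP7d_3. The plot of granule UMIs by cell shows them against depth, with UMIs that run on across the limit (8 and 13 in the cells next to it).

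**Figure D3:**
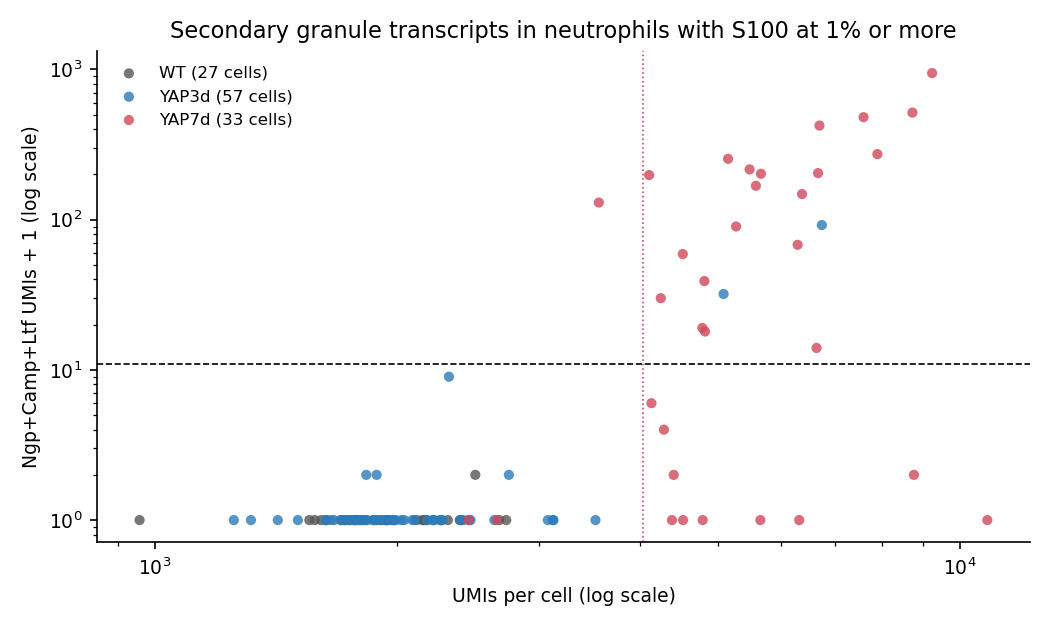
Each point is 1 S100-rich neutrophil, placed by its total UMIs (x axis, logarithmic) and by its UMIs of Ngp, Camp and Ltf together (y axis), coloured by group. All 23 granule-transcript cells have 3559 UMIs or more, a depth that 84 of the 117 S100-rich cells do not reach.

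Thinning every cell to 1000 UMIs kept the difference in detection between libraries. A Ngp UMI was present in 22 of 28 S100-rich cells of YAP7d_3 (78.6%, median 5613 UMIs), and in 71.4% of them after thinning. Of the lymphocytes of the same library 22 of 184 had one (median 5870 UMIs), and 1.09% after thinning. In YAP7d_1 it was 75.0% of 4 cells before and after thinning. In WT_2 it was 0 of 22 cells, in YAP3d_2 13.3%, and in YAP3d_4 3 of 30 cells (6.67% thinned) against 3.47% of its lymphocytes (0.847% thinned).

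Thinning cannot restore cells below a library's smallest kept cell. At 4041 UMIs or more, the floor of YAP7d_3, there were 2 S100-rich cells outside YAP7d, and both were granule-transcript cells, while in YAP7d 20 of 30 were. When the S100-rich cells outside the rule, whose cell type was not settled, were added, the counts at that depth were 5 of 8 outside YAP7d and 32 of 56 in YAP7d. At 2443 UMIs or more, 2 of 13 S100-rich cells outside YAP7d were granule-transcript cells. The smaller cells that make up most neutrophils of WT and YAP3d were not among the cells kept in YAP7d_3, so a larger share of granule-transcript cells and fewer kept small cells cannot be told apart.

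The 23 granule-transcript cells and the other 94 S100-rich cells are compared as a description, since Ngp, Camp and Ltf defined them. Of the 23, 18 came from YAP7d_3, whereas 27 of the 94 came from WT, 55 from YAP3d and 12 from YAP7d, so library and set cannot be told apart in these values. Lcn2, not used in the limit, was at 8190 CPM in the first and 1022 CPM in the second. Ly6c2, a surface protein of myeloid cells, was at 1163 and 179 CPM. Il1b (interleukin-1β) was lower in the first, at 1251 and 9555 CPM, as were Csf3r at 110 and 1009 CPM and Ptgs2 (cyclooxygenase-2) at 29.4 and 498 CPM. Tnfaip2, a TNF-induced gene, was at 51.5 and 874 CPM, and Klf2, a quiescence factor of leukocytes, at 442 and 1844 CPM. Lower values were not particular to these genes: Srgn, a proteoglycan of secretory granules, was at 1685 and 5640 CPM and Msrb1, which repairs oxidised proteins, at 2075 and 5457 CPM. S100a9 alone made up 145247 CPM of the first set and 56518 CPM of the second, and a CPM is a share of the same total. What part this had in the lower values was not tested. Hp (haptoglobin) was at 2436 and 2399 CPM, and inside YAP7d_3 at 2265 and 1636 CPM. Inside YAP7d_3 alone, where library and floor are shared, the 18 granule-transcript cells and the 10 others held Csf3r at 108 and 379 CPM, Il1b at 1519 and 4391 CPM and Lcn2 at 7955 and 1240 CPM. The ratios of these 3 genes were smaller there than over all libraries, as were those of Ly6c2 (1186 and 482 CPM), Ptgs2 (27.0 and 121 CPM), Tnfaip2 (62.9 and 224 CPM) and Klf2 (476 and 1119 CPM). Chil3, of the specific granule list, was at 1612 and 612 CPM over all libraries but at 1843 and 2359 CPM inside YAP7d_3. Its level in YAP7d_3 was higher in the rule cells, which include the S100-poor cells, than in the S100-rich cells. It was 155 times what 3 UMIs over WT would give (48.5 CPM) in the former and 35.3 times (57.2 CPM) in the latter. Primary granule genes were nearly silent: 4 of the 5 (Mpo, Elane, Prtn3, Ctsg and Ms4a3) were at 0 in every S100-rich cell, and the list reached 93.2 CPM in YAP3d_1 at most.

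**Figure D4:**
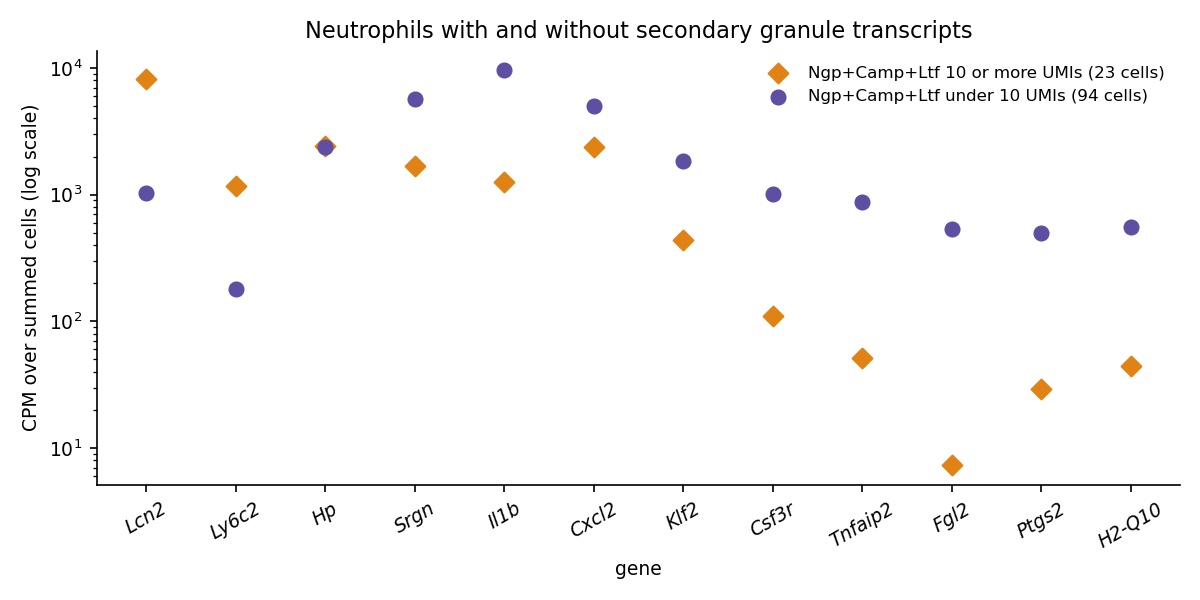
Levels (CPM, logarithmic axis) of selected genes in the granule-transcript cells and in the other S100-rich cells, with UMIs summed over the cells of each set. Lcn2 and Ly6c2 are higher in the granule-transcript cells, Il1b, Csf3r, Ptgs2, Tnfaip2 and Klf2 are higher in the others, and Hp is at 2436 and 2399 CPM.

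Gene levels were then compared between groups over libraries, with UMIs summed over the neutrophils of each library and edgeR's quasi-likelihood test. Fold changes are log2 differences with their standard error (SE), and adjusted p-values are Benjamini-Hochberg values over all genes tested. The genes of the rule stayed in the fit but are not counted among the calls.

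Between YAP3d and WT, whose libraries all had at least 5 neutrophils, 0 of 1077 genes passed (0.0%). At an unadjusted p under 0.05 there were 27 genes (2.51%, 15 higher and 12 lower), and DESeq2 passed 0 with 13 at an unadjusted p under 0.05. For 111 genes (10.3%) every library of one group lay on the same side of the other group. With the S100-rich cells alone 0 of 945 genes passed. No gene described below for this comparison passed the threshold in these fits, and lists were not tested as such.

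The smallest unadjusted p-values in YAP3d against WT belonged to Ngp, Ifitm1 and Wfdc17 on the higher side. Ngp entered the fit through the libraries where it was high, so its rank is no result. At 0 UMIs in WT, it had in YAP3d_2 at least 51.7 times the level that 3 UMIs over the WT group would give, in YAP3d_4 at least 2.58 times, and in YAP3d_1 and YAP3d_3 it was at 0. Ifitm1, an interferon-inducible membrane protein that blocks virus entry, was at 618 and 1135 CPM in WT and at 1491, 3590, 9366 and 1753 CPM in YAP3d. All YAP3d libraries lay above both WT libraries, with a log2 fold change of 2.16 ± 0.72 (SE) and an adjusted p of 0.994 by edgeR. Wfdc17, a secreted protein of activated myeloid cells, was at 899 and 568 CPM in WT and at 1397, 8263, 5352 and 438 CPM in YAP3d, so the groups overlapped (2.59 ± 0.93, edgeR adjusted p = 0.994). On the lower side Fabp4, a fatty acid binding protein of endothelium and macrophages, was at 4104 CPM in WT_1, 45.4 CPM in WT_2, 0 in YAP3d_1 to YAP3d_3 and 626 CPM in YAP3d_4. Gm42418 (-2.27 ± 0.87) and Ndufa4, a respiratory chain protein (-1.88 ± 0.72), were likewise highest in WT_1, at 6353 and 956 CPM. The single S100-poor cell of WT_1 gave 9405 of the 17788 rule-cell UMIs of that library and held the endothelial markers at 4997 CPM, against 5730 CPM in the 2 S100-poor cells of YAP3d_4. The part of these cells in the values was not tested.

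By role, 0 genes of the lists passed between YAP3d and WT. Counts and medians of log2 fold changes are from the rule cells, followed by those of the S100-rich cells where they are set beside them, and CPM ranges are from the S100-rich cells. Of 10 receptors tested, 6 lay above 0 and the median log2 fold change was 0.07, against -0.01 over all genes (S100-rich cells 0.09, against 0.06). C5ar1, the receptor for complement C5a, ranged from 1385 to 1551 CPM in WT and 779 to 1677 CPM in YAP3d in the S100-rich cells, and Csf3r from 1181 to 1789 CPM and 1029 to 1211 CPM. Of 9 inflammatory cytokine genes 5 lay above 0 (median 0.10; S100-rich cells 4 of 9, median -0.11), and Il1b, the most abundant, ranged from 11929 to 14236 CPM in WT and from 7699 to 16159 CPM in YAP3d. All 6 genes of the NADPH oxidase, which makes the oxidative burst, were tested and 4 lay above 0 (median 0.08), but in the S100-rich cells 1 of 5 did (median -0.02). Its Cyba subunit ranged from 1726 to 2266 CPM in WT and 1132 to 3074 CPM in YAP3d. Of 11 late maturation genes 10 lay above 0 (median 0.75; S100-rich cells 10 of 12, median 0.58), among them the protease inhibitor Slpi and Pglyrp1, which binds bacterial cell walls. Of 8 specific granule genes 6 were tested, of which Ngp, Ltf, Chil3 and Cd177 had 0 UMIs in WT and Camp had 1. They entered the fit through libraries of the induced groups, so neither their direction nor a median is given. The 5 MHC class I genes tested had a median of -0.75 with 1 above 0 (S100-rich cells -0.44), and H2-K1 was at 908 to 1074 CPM in WT and 238 to 674 CPM in YAP3d (edgeR adjusted p = 0.994). Of 8 type I interferon response genes 3 lay above 0 (median -0.25; S100-rich cells 2 of 8, median -0.36), with Ifitm1 above 0 and Isg15, lower in every YAP3d library than in WT, below it (-1.21 ± 0.52, edgeR adjusted p = 0.994). All 5 MHC class II genes tested lay above 0 (median 0.94), and in the S100-rich cells 2 of 3 did (median 0.01).

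YAP7d had only 1 library with 5 neutrophils, so its comparisons were made with every library included, down to the 1 cell of YAP7d_2. That cell held 2452 UMIs, so that 1 UMI in it is 408 CPM. A 0 there says little, also where YAP7d is said below to lie apart from the other groups. Against WT, 1 of 361 genes passed with the rule cells (0.277%), Csf3r, which was lower in YAP7d. Against YAP3d 3 of 361 genes passed (0.831%), Csf3r, Fgl2 and H2-Q10, all lower in YAP7d. At an unadjusted p under 0.05 in edgeR there were 31 (8.59%) and 58 genes (16.1%), and DESeq2 passed 5 genes in each comparison. Whole groups lay apart, with YAP7d lower, for 17.2% of genes against WT and 11.6% against YAP3d, and in the S100-rich cells for 28.8% and 14.9%. The 2 comparisons share the YAP7d libraries. In YAP7d_3 the S100-poor cells gave 379140 of the 548472 rule-cell UMIs, so they weigh heavily in its rule-cell values.

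Csf3r (chromosome 4, 126023441 to 126044975, GRCm38.p6) was at 1012 and 1181 CPM in the rule cells of WT, at 1211, 1082, 1029 and 1090 CPM in YAP3d, and at 64.6, 0 and 71.1 CPM in YAP7d. Every YAP7d library lay below every other library, though YAP7d_2 is 1 cell. The log2 fold change was -3.55 ± 0.64 against WT (edgeR adjusted p = 0.0486) and -3.68 ± 0.60 against YAP3d (edgeR adjusted p = 0.0207). In the S100-rich cells of YAP7d, Csf3r was at 64.6, 0 and 201 CPM, and the fold changes were -2.60 ± 0.51 and -2.40 ± 0.46 (edgeR adjusted p = 0.0276 and 0.0154). A Csf3r UMI was present in 57.1% of the S100-rich cells of YAP7d_3 and 25.0% after thinning to 1000 UMIs, against 95.5% and 72.7% in WT_2, at median depths of 5613 and 1938 UMIs. Of the lymphocytes of YAP7d_3 2.17% had one, and 0 after thinning. With the rule cells, leaving out any single library took the call against WT away. Leaving out YAP7d_3 left -3.59 against WT (edgeR adjusted p = 0.196) and -3.70 against YAP3d (0.193). RLE size factors, scaling without the rule genes, a 2-group fit, 20 S100 UMIs and the replicate block also left no call against WT. The block left none against YAP3d.

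**Figure D5:**
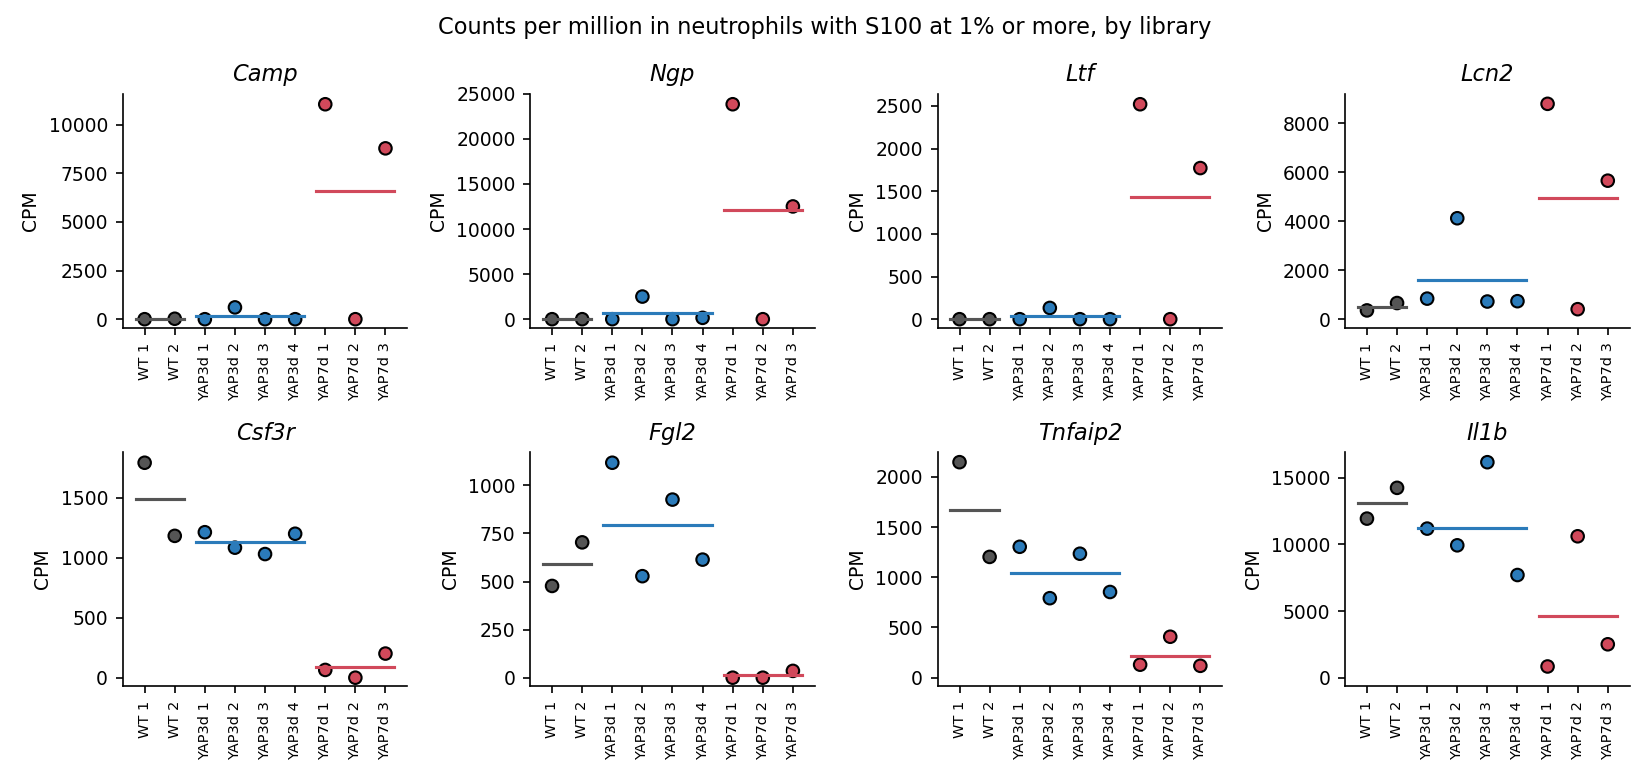
Level (CPM, y axis) in the S100-rich cells of each of the 9 libraries for 8 genes, 1 panel a gene, with points coloured by group. Csf3r and Fgl2 lie lower in all 3 YAP7d libraries than in any other, while the granule genes are high in YAP7d_1 and YAP7d_3 and at or near 0 in the single cell of YAP7d_2.

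Fgl2, a fibrinogen-like protein of activated leukocytes (chromosome 5, 21372673 to 21378386), was at 477 and 704 CPM in the S100-rich cells of WT and at 1118, 528, 926 and 614 CPM in YAP3d. It was at 0 CPM in YAP7d_1 and YAP7d_2, the latter 1 cell, and at 35.4 CPM in YAP7d_3, below every other library. With the rule cells it differed from YAP3d by -4.04 ± 0.73 (edgeR adjusted p = 0.0249) and from WT by -3.50 ± 0.76 (adjusted p = 0.0819). H2-Q10, an MHC class I gene of the Q region whose near-identical relatives make its counts uncertain, was at 596 and 817 CPM in the S100-rich cells of WT and at 1025, 581, 823 and 569 CPM in YAP3d. In YAP7d it was at 64.6, 0 (1 cell) and 76.8 CPM, again without overlap (-4.24 ± 0.84 against YAP3d with the rule cells, edgeR adjusted p = 0.0373). With the S100-rich cells both also passed against WT, Fgl2 by -3.73 ± 0.72 (edgeR adjusted p = 0.0276) and H2-Q10 by -2.77 ± 0.60 (0.0331). With the rule cells, 0 genes passed against YAP3d by edgeR when any 1 library other than YAP3d_4 or YAP7d_2 was left out, and without YAP7d_3 the adjusted p was 0.193 for Fgl2 and 0.392 for H2-Q10.

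The S100-rich cells, an alternative to the rule cells chosen for these fits after seeing the data, gave 7 of 316 genes against WT (2.22%; 1 higher, 0.316%, and 6 lower, 1.9%) and 6 of 316 against YAP3d (1.9%; 2 higher, 0.633%, and 4 lower, 1.27%). Besides the genes above, Tnfaip2 was at 2147 and 1203 CPM in WT, at 1304, 792, 1235 and 854 CPM in YAP3d, and at 129, 408 and 118 CPM in YAP7d. It passed against both groups, by -3.04 ± 0.53 and -2.48 ± 0.49 (edgeR adjusted p = 0.0272 and 0.0154). Ptgs2 was at 1431 and 681 CPM in WT, at 373, 238, 926 and 644 CPM in YAP3d, and at 64.6, 0 and 59.1 CPM in YAP7d, and passed against WT alone (-3.48 ± 0.78, edgeR adjusted p = 0.0331; against YAP3d 0.0991). Isg15, an interferon-induced ubiquitin-like protein, was at 1431 and 1544 CPM in WT, at 652, 396, 309 and 599 CPM in YAP3d, and at 258, 0 and 148 CPM in YAP7d. Its fall passed against WT (-2.59 ± 0.57, edgeR adjusted p = 0.0331) and not against YAP3d (adjusted p = 0.276). The monocyte markers were higher in YAP7d_1 and YAP7d_3 than in WT and YAP3d (above), and their part in these differences was not tested. No gene passed in either comparison without YAP7d_3, and 16 and 13 genes passed without the single cell of YAP7d_2.

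The genes counted as higher in these fits were Ltf and, against YAP3d, also Plac8. Ltf had 0 UMIs in WT and 5 in YAP3d, so it entered the fits through the YAP7d libraries where it was high. Its pass is therefore no result, and its groups overlapped, with 0 CPM in YAP7d_2. Its level was at least 44.0 times in YAP7d_1 and at least 31.0 times in YAP7d_3 what 3 UMIs over the WT group would give. Plac8, expressed in immature and activated myeloid cells, was at 119 and 658 CPM in WT, at 0, 106, 0 and 180 CPM in YAP3d, and at 582, 0 and 1376 CPM in YAP7d (3.37 ± 0.76 against YAP3d, edgeR adjusted p = 0.0409). Its groups overlapped as well, and inside YAP7d_3 it was at 395 CPM in the granule-transcript cells and 3254 CPM in the others.

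By role, the S100-rich cells of YAP7d against WT showed no change past the threshold in most lists. Counts of passing genes stand against 7 of 316 (2.22%) over all genes, and most lists had few genes tested. Of 8 specific granule genes 4 were tested and Ltf passed; Ltf, Ngp and Chil3 had 0 UMIs in WT and Camp had 1, so they entered the fit through the libraries where they were high and their direction is no result. Of 4 receptors tested 1 passed, Csf3r, and all 4 lay below 0 (median -1.46, against 0.04 over all genes). C5ar1 ranged from 1385 to 1551 CPM in WT and from 596 to 1631 CPM in YAP7d. Of 7 inflammatory cytokine genes Ptgs2 passed and 4 lay above 0 (median 0.15). Il1b was at 840, 10604 and 2504 CPM in YAP7d, so that the single cell of YAP7d_2 lay among the WT and YAP3d libraries and the others below them (edgeR adjusted p = 0.264). Cxcl2, the chemokine that calls further neutrophils, was at 3941, 19168 and 3006 CPM in YAP7d and at 4337 to 6799 CPM in WT.

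Of 8 immediate early and heat shock genes tested 0 passed by edgeR, 3 had an unadjusted p under 0.05, and 1 lay above 0 (median -1.22). Over all genes of this fit 52 of 316 (16.5%) had an unadjusted p under 0.05, 22 higher and 30 lower. Junb, a transcription factor induced by cell stimulation, ranged from 8589 to 8764 CPM in WT and from 1949 to 2778 CPM in YAP7d, and Dusp1, a phosphatase of the same response, from 3678 to 5249 CPM and from 0 to 905 CPM. In YAP3d Junb ranged from 3879 to 10900 CPM. These genes respond to tissue dissociation, and its part in their levels was not tested. Of 4 transcription factors 0 passed by edgeR: Cebpb, which drives emergency granulopoiesis, ranged from 3792 to 4652 CPM in WT and 2646 to 6933 CPM in YAP7d, and Klf2 from 2770 to 3340 CPM and 129 to 1223 CPM (edgeR adjusted p = 0.0997). In the fit of YAP7d against WT 3 of 9 MHC class I genes, 2 of 6 NADPH oxidase genes and 4 of 13 adhesion genes were tested and none passed by edgeR. H2-Q10, which passed in this fit, is not in the MHC class I list. Proliferation genes other than Hmgb2, a chromatin protein abundant in myeloid cells, were low, with Tuba1b at 130 CPM and Pcna at 119 CPM at most in any library.

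Chemoattractant genes were also summed over all cells outside the rule. Cxcl1 was at 12.1 and 46.6 CPM in WT, at 13.3, 4.02, 4.72 and 15.8 CPM in YAP3d, and at 3.34, 3.85 and 15.3 CPM in YAP7d. Cxcl2 was at 22.6 and 250 CPM in WT, at 30.5, 257, 16.5 and 130 CPM in YAP3d, and at 303, 324 and 407 CPM in YAP7d, the highest of the 9 libraries. Csf3, which encodes granulocyte colony-stimulating factor, had between 0 and 20 UMIs a library. No test was made on these sums, which follow the mix of cell types in each library.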

How the data were processed

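The authors aligned the reads to mm10 and counted UMIs with Cell Ranger 2.1.1; the submitters' processing notes also name Seurat 2. The deposited table holds raw counts of UMIs per gene and cell for all 9 libraries, with integer values for 27998 genes and the library in each cell's name. The smallest cell differs between libraries, and whether the cell filter differed was not tested. Droplet counts are sparse, and intervals and floors cover counting error only.

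The members, gene lists and tests were chosen with earlier results of these data known. Counts of the neutrophils of a library were summed and tested with edgeR 4.0.16 (R 4.3.3; TMM, filterByExpr, glmQLFit and glmQLFTest, 3 groups in 1 fit, adjusted p under 0.05), in libraries with at least 5 neutrophils and, as an alternative, in every library. DESeq2 1.42.0 was the other tool. Shares were compared with exact permutation tests over libraries (scipy 1.17.1) and given exact Clopper-Pearson 95% intervals. Doublets were called with Scrublet (scanpy 1.11.5, expected rate 0.05) and kept. Monocytes, macrophages and lymphocytes were set by marker UMIs, for description. In data simulated for YAP3d against WT with log2 fold changes of 2, edgeR recovered 27.5% of 178 changed genes among 920 tested, with 0 false calls. With log2 fold changes of 4 it recovered 86.9% of 183 among 849, with 4 false calls.

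Named genes were the 5 largest rises and falls that passed with no overlap and at least 50 CPM, or the 3 smallest p-values in a direction where fewer than 3 passed, and the most abundant and all passing members of each of 19 lists. Of 298 list genes 291 were in the table. Coordinates and promoters are from RefSeq on GRCm38.p6, the patch-level name of the deposited build. Alternatives changed the S100 limits, the second genes, the cell filters, the scaling, the gene filter, the tool, the block and the libraries. The S100-rich sets in gene fits, and all S100-rich cells without the other limits, were added after seeing the data. All alternatives of the YAP7d gene fits were unplanned too, as were the S100-rich shares above the highest library floor and among Ptprc-positive cells.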

Additional observations from a re-analysis of the deposited data

Results flagged for a closer look

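In the 4 YAP3d libraries 31 quantities were examined for a library far from the other 3, and 7 met the limit. A gene detected in only 1 of the 4 libraries always meets it, as Camp, Ltf, Chil3 and Fabp4 did. No rate by chance is therefore given for the 7. In 5 of them the far library was YAP3d_2, which holds both granule-transcript cells of YAP3d: Ngp at 2508 CPM, Camp at 607 CPM, Ltf at 132 CPM, Chil3 at 211 CPM and Lcn2 at 4118 CPM in the S100-rich cells. Xist was at 1304 CPM in YAP3d_1 and between 206 and 300 CPM in the other YAP3d libraries. Fabp4 was at 120 CPM in YAP3d_4 and at 0 in the other 3. All values are from the S100-rich cells, 6 to 30 in a library.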

How the results depend on the processing

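The share of neutrophils in YAP7d against WT, -0.0399 percentage points with the rule, changed sign with an S100 minimum of 5 UMIs (2.16), with no second gene (0.324), with 500 or more genes (0.0354), at or above the highest library floor (0.900) and there with the S100-rich cells (0.650); without single libraries it ran from -0.910 to 0.508. YAP3d against WT turned to -0.0626 above that floor and otherwise kept its sign (0.251 to 0.964 without single libraries). YAP7d against YAP3d turned to 1.41 with the minimum of 5 UMIs, 0.962 above the floor and 0.472 there with the S100-rich cells, and ran from -1.61 to -0.191 without single libraries. The exact permutation p over the 3 groups was 0.0198 with the S100-rich cells among Ptprc-positive cells and 0.119 to 0.939 without single libraries.

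In YAP3d against WT 0 genes passed without each library in turn and 1 (Ngp) without the filter on low counts. In YAP7d against WT (1 gene), DESeq2 passed 5, the S100-rich cells 7 (8 by DESeq2, 6 without the rule genes), all S100-rich cells 6 and no filter 6. Scaling without the rule genes, RLE size factors, a 2-group fit, 20 S100 UMIs and each left-out library gave 0. In YAP7d against YAP3d (3 genes), DESeq2 passed 5, the S100-rich cells 6 (5 by DESeq2), no filter 9, the 2-group fit 1 and left-out libraries 0 to 6. The S100-rich cells without YAP7d_1, YAP7d_2 and YAP7d_3 gave 3, 16 and 0 genes against WT, and 1, 13 and 0 against YAP3d.

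Whether the replicate numbers pair the samples was not settled. Same-numbered WT and YAP3d libraries deviated together with r of -0.0682 and 0.261 across genes. With 2 WT libraries the deviations mirror each other, so these values cannot decide it, and YAP7d was not checked. The smallest kept cell had 835 and 822 UMIs in WT_1 and YAP3d_1, but 1510 and 1601 in WT_2 and YAP3d_2. In YAP7d_1 and YAP7d_2 it had 2461 and 2443. With the replicate block YAP3d against WT passed 15 genes (6 higher, 9 lower), and both YAP7d comparisons passed 0. The causes of these changes were not tested. The fits for YAP7d with at least 5 or 10 neutrophils a library were not run, since 1 library remained.

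Limits are the number of cells, 148 by the rule of which 117 were S100-rich, with 1 in YAP7d_2, and a smallest kept cell that differs between groups.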
